A study of Sus scrofa with 30 samples.

Results

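The splicing factors and nuclear RNA-binding proteins described here were the genes whose symbol begins with SRSF, HNRNP, SNRP, SF3A, SF3B or PRPF, or with RBM followed by a digit. Taken from the array's own probe annotation, with probe sets carrying a single symbol, they came to 73 of the 6765 genes that the annotation names, with 120 of 23999 probe sets. A probe set is a group of short probes read together as 1 value, and 29 of the genes had several (76 probe sets, up to 6 for SRSF6). After the filter on low values 114 member probe sets, standing for all 73 genes, were tested among 16799 (5773 named genes). The other 6, for PRPF38B, PRPF39, RBM12B, RBM39, RBM42 and SRSF10, lay below the filter, and each of those genes had another probe set above it.

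Splicing removes introns from pre-mRNA on the spliceosome, which is built from small nuclear ribonucleoproteins (snRNPs) and many other proteins. SR proteins, here named SRSF, mostly bind exonic enhancers and recruit the machinery, while many hnRNP proteins coat the pre-mRNA and often act against exon inclusion. Sm proteins (SNRPB to SNRPN) form the ring on which each snRNP is assembled, SF3A and SF3B belong to the U2 snRNP that recognises the branch point, and PRPF proteins are mostly parts of the U4/U6.U5 tri-snRNP and its partners. RBM proteins share only an RNA-binding motif and have varied roles in splicing, RNA surveillance and translation. Neurons use alternative splicing heavily, and in cell biology changes of temperature, energy supply or osmolarity are known to move several of these proteins within the nucleus.

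Cerebral cortex of pigs (12 to 14 weeks old, weighing 25.8 ± 1.3 kg, males and females of a Swedish triple breed) was measured on 30 porcine Affymetrix arrays, 3 biological replicates in each of 10 groups. All animals were under pentobarbital anesthesia and had ventricular fibrillation induced electrically, those of the control group included. In 6 groups 12 min of arrest preceded 8 min of cardiopulmonary resuscitation (CPR), and the cortex was sampled once the heart had beaten on its own for 30, 60 or 180 min, counted from the return of circulation (ROSC). The MB30, MB60 and MB180 groups received saline with methylene blue, a dye that blocks the nitric oxide and cyclic GMP pathway, at 7.5 mg/kg/h, and the SAL30, SAL60 and SAL180 groups received saline alone, both at 55 ml/kg/h of saline. The infusion ran from 1 min after the start of CPR to 50 min after ROSC, so at 30 min it was still running. The CA5, CA20 and CA30 groups had 5, 20 or 30 min of arrest with no resuscitation, and in CA0 the brain was removed directly after fibrillation began. No group without arrest was measured.

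Intensities are the authors' signal in arbitrary units, and differences are on the scale of log2(intensity + 16), given ± their standard error from a limma fit over the 10 groups. A difference passed, or was called, where its Benjamini-Hochberg adjusted p over all 16799 probe sets was below 0.05. The tissue labels were borne out by the neuronal transcript SNAP25 at 7124 to 19969, the myelin transcript MBP at 10881 to 25773 and the astrocyte transcript GFAP at 5044 to 11485. TTR, a choroid plexus transcript, stood at 11962 on CA20 replicate 2 and at most 193 on the other arrays. The 9 methylene blue arrays stood apart from the rest on the first principal component, at 13.5 to 47.1 against -39.6 to 10.3 on saline arrays and -41.0 to 1.95 on arrest arrays. The log2 ratio of 3′ to 5′ signal of the control transcripts, a sign of RNA integrity, was 0.56 to 1.51 on methylene blue arrays, 1.17 to 2.74 on saline arrays and 1.07 to 2.89 on arrest arrays. Median intensity was 97.6 to 108 on methylene blue arrays, 87.0 to 105 on saline arrays and 88.0 to 97.7 on arrest arrays. Because the labels give no order of processing, methylene blue and any batch of these arrays cannot be told apart.

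Across the comparisons, splicing factor transcripts passed about as often as the array as a whole. Averaged over the 3 times, 29 of 114 member probe sets (25 genes) differed between methylene blue and saline cortex, 18 higher and 11 lower. That is 25.4% of the members, beside 25.2% of all tested probe sets, 13.8% higher and 11.4% lower. The median difference was -0.01 over the members and 0.02 over all tested probe sets, and the median absolute difference was 0.18 over the members and 0.19 over all. The members' share and size were thus close to those of the array. A probe set whose mean over the saline and arrest arrays lay below the filter had passed it through the methylene blue arrays, and 1 of the 29, the dimmest of RBM5, was such a case. Without such probe sets, a count chosen after the values were seen, 28 members passed (24.8%, beside 24.7% of all tested). Of the 29, 28 had the same sign at 30, 60 and 180 min, and the exception was a probe set of RBM18 at 60 min. In the test of any difference among the 10 groups, 15 members (14 genes) passed, 13.2% beside 15.3% of all tested, and 12 of these were among the 29. The dimmest RBM5 probe set was among the 15 as well.

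**Figure D1:**
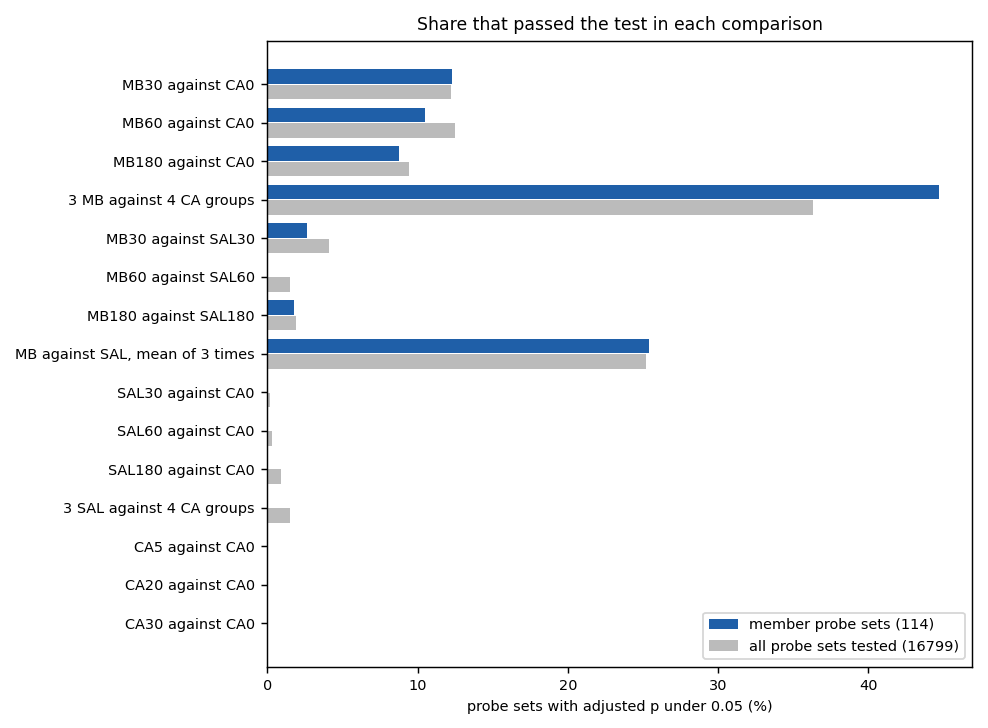
Percent of probe sets that passed (x axis, adjusted p under 0.05) in each of 15 comparisons (y axis), for the 114 tested member probe sets and for all 16799 tested probe sets. The paired values lie close together in most comparisons, at 25.4% and 25.2% for methylene blue against saline over the 3 times and at 0 for members in each saline group against CA0.

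The split into higher and lower depended on the scaling. With every array centred on its median, 42 members passed, 10 higher and 32 lower, and with quantile normalization 32 passed, 16 in each direction. The median difference over all tested probe sets was 0.02 as deposited and -0.07 after median centring. For methylene blue against CA0 centring moved that median to -0.15, -0.13 and -0.13 at 30, 60 and 180 min, from 0.04, 0.01 and 0.04. Of the 29 called members, 21 also passed after median centring and 25 after quantile normalization, with no change of sign among the probe sets named here. Those that did not pass after centring, all rises, were SRSF7, SRSF12, HNRNPH1, HNRNPK, SNRPN, RBM48 and the brighter probe sets of HNRNPDL and RBM18. With the 3′/5′ ratio of each array as a covariate 13 members passed, 11 of them among the 29. Those 11 included the brighter HNRNPD and HNRNPDL probe sets and the dimmest of RBM5. The rest of the 11 were called probe sets of HNRNPH1, HNRNPH2, SF3B1, SF3B2, SF3B5, SNRPN, SRSF9 and RBM8A. Called probe sets of RBM42, RBM18, RBM26, RBM34, PRPF3, HNRNPH3, HNRNPUL1 and HNRNPA2B1 were among those that did not pass with it. The ratio differs between the arms, so its part in these differences cannot be told apart from the treatment.

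Among the SR proteins, 5 of 26 tested probe sets passed between methylene blue and saline, 3 higher and 2 lower, beside 25.2% of all tested (13.8% higher and 11.4% lower). SRSF7, an SR protein with a zinc knuckle, stood at 1089 to 1388 (median 1189) on methylene blue arrays and 888 to 1201 (median 1036) on saline arrays, a difference of 0.20 ± 0.069 (adjusted p = 0.0362, n = 9 arrays each). The arms overlapped, with most methylene blue arrays in the upper part of the range. SRSF12, which counters the action of SR proteins on splice site choice, was at 212 to 265 (median 229.6) on methylene blue arrays and 148 to 258 (median 187) on saline arrays, a difference of 0.25 ± 0.086 (adjusted p = 0.0352). After median centring neither SRSF7 nor SRSF12 passed (adjusted p = 0.246 and 0.144). SRSF9 gave 608 to 941 (median 858) on methylene blue arrays and 889.9 to 1204 (median 980.2) on saline arrays with its brighter probe set, a fall of -0.26 ± 0.084 (adjusted p = 0.0246). The dimmer one gave 0.08 ± 0.12 and did not pass.

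SRSF10 and SRSF11 were each called on 1 of several probe sets. SRSF10, a splicing repressor when dephosphorylated, fell by 0.24 on a probe set of middling level (adjusted p = 0.0459), at 273 to 348 on methylene blue arrays and 306 to 455 on saline arrays. Its other 3 tested probe sets gave 0.13, 0.21 and 0.17, on the opposite side of 0, and did not pass. The SRSF10 call was lost when any of 12 single arrays was left out. SRSF11, which promotes the inclusion of short neuronal exons, rose by 0.57 ± 0.18 on a dim probe set (adjusted p = 0.0228), at 51.6 to 222 (median 83.2) on methylene blue arrays and 21.1 to 103 (median 65) on saline arrays. The other 4 lay between -0.29 and 0.11 without passing.

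Members of the SR family that are best known as general splicing factors gave no call. SRSF2 (SC35), at 2142 to 2700.0 on methylene blue arrays and 2321 to 3289 on saline arrays, differed by -0.12 ± 0.070. SRSF3, which has the smallest SR protein, differed by -0.02 ± 0.14, SRSF4 by 0.10 ± 0.076 and SRSF5 by 0.01 ± 0.078. The 6 probe sets of SRSF6 spread from -0.33 to 0.25. SRSF1 (SF2/ASF), the archetype of the family, had probe sets at -1.06 ± 0.41, -0.07 ± 0.11 and 0.35 ± 0.22, the largest spread of any member gene, and none passed (adjusted p = 0.0576, 0.659 and 0.253).

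The hnRNP family held 10 of the 29 called probe sets, 4 higher and 6 lower of 26 tested, beside 25.2% of all tested (13.8% higher and 11.4% lower). HNRNPD (AUF1), which binds AU-rich elements and promotes decay of many short-lived mRNAs, gave the smallest p among members. With the brighter of its 2 probe sets it stood at 2404, 2049 and 2275 in MB30, 2566, 2071 and 2371 in MB60, and 2415, 2174 and 2320.3 in MB180. Saline arrays had 3689, 3110.1 and 3138 in SAL30, 2941, 3584 and 2751 in SAL60, and 3325, 2971 and 3715 in SAL180. Each methylene blue array lay below each saline array and below each of the 12 arrest arrays (2752 to 3863). This was the only called member without overlap between the arms, a pattern seen in 1.95% of all tested probe sets, in 0.827% with methylene blue lower. The fall was -0.49 ± 0.066 (adjusted p = 1.69e-05), and with the 3′/5′ covariate it was -0.36 (adjusted p = 0.00101). The dimmer HNRNPD probe set, which followed the first across the arrays (Pearson r = 0.809, n = 30), fell by 0.20 (adjusted p = 0.0242), at 1334 to 1721 on methylene blue arrays and 1569.5 to 1961 on saline arrays. With the covariate the dimmer one differed by -0.11 and did not pass (adjusted p = 0.346).

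HNRNPDL, the paralog of HNRNPD, passed in opposite directions on its 2 probe sets. The dimmer gave 1522 to 2016 (median 1732) on methylene blue arrays and 1879 to 2650.4 (median 2085) on saline arrays, a fall of -0.30 ± 0.070 (adjusted p = 0.00276). The brighter gave 2418 to 2969 (median 2679.9) on methylene blue arrays and 1652 to 2714 (median 2289) on saline arrays, a rise of 0.27 ± 0.081 (adjusted p = 0.0167). It is the 1 member gene with called probe sets of opposite sign, so no direction is given for the gene. After median centring the rise did not pass (adjusted p = 0.159). With the 3′/5′ covariate the fall did not pass (adjusted p = 0.111).

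The H group, which binds runs of G in pre-mRNA, was called in both directions. HNRNPH2 rose by 1.06 ± 0.19 (adjusted p = 0.000367) with the dimmer of its 2 probe sets. Its values were 434, 757 and 623 in MB30, 541, 533 and 955 in MB60 and 629, 823 and 656 in MB180, against 155, 345 and 333 in SAL30, 537, 205 and 489 in SAL60 and 312, 253 and 252 in SAL180. Of the saline arrays, SAL60 replicates 1 and 3 alone reached the range of the methylene blue arrays. The other HNRNPH2 probe set gave 0.25 ± 0.10 and did not pass (adjusted p = 0.0663). HNRNPH1 rose by 0.29 ± 0.077 (adjusted p = 0.00814), at 2057 to 2584 on methylene blue arrays and 1573 to 2230.3 on saline arrays, and did not pass after median centring (adjusted p = 0.0745). HNRNPH3 fell by 0.41 (adjusted p = 0.00908), at 368 to 663 on methylene blue arrays and 581 to 953 on saline arrays.

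Another 3 hnRNP genes passed on 1 probe set each. HNRNPUL1, a partner of the DNA damage response, fell by 0.30 (adjusted p = 0.00307), at 636 to 796 on methylene blue arrays and 777 to 1174 on saline arrays. Its other, dim probe set gave 0.16, on the opposite side of 0, and did not pass (r = -0.513 between them, n = 30). HNRNPA2B1, a core hnRNP that also directs mRNA transport in neurons and oligodendrocytes, fell by 0.47 (adjusted p = 0.0112) with the second brightest of 3 probe sets, at 273 to 410.1 on methylene blue arrays and 326 to 629 on saline arrays. Its brightest probe set differed by -0.21 ± 0.080 and did not pass (adjusted p = 0.0571). HNRNPK, which binds C-rich sequence, rose by 0.21 (adjusted p = 0.0191) with its dimmer probe set, at 2059.6 to 2441 on methylene blue arrays and 1639 to 2299.7 on saline arrays, while the brighter gave 0.16 ± 0.076. HNRNPA1, a widely expressed splicing repressor, was at 1589.6 to 2222 on methylene blue arrays and 1601 to 2281 on saline arrays, a difference of -0.02 ± 0.084. HNRNPC gave -0.08 and -0.06, and HNRNPU, a nuclear scaffold protein, gave 0.37 ± 0.14 (adjusted p = 0.0541).

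In the snRNP core the 1 call among 8 Sm probe sets (25.2% of all tested passed) was SNRPN, the imprinted neuronal Sm protein. It rose by 0.23 ± 0.070 (adjusted p = 0.0176), at 4626 to 6350.5 (median 5627) on methylene blue arrays and 3902 to 5231 (median 4651) on saline arrays, and did not pass after median centring (adjusted p = 0.214). SNRPB, the Sm protein that SNRPN replaces in neurons, was at 568 to 963 on methylene blue arrays and 742 to 972 on saline arrays, a difference of -0.21 ± 0.098 that did not pass. Of 5 probe sets for proteins specific to the U1 and U2 snRNPs none passed with limma, and none had an unadjusted p under 0.05. SNRPA of the U1 snRNP differed by 0.03 ± 0.079.

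SF3B subunits gave 3 calls among 8 probe sets of SF3A and SF3B, beside 25.2% of all tested. SF3B1, the largest subunit of the complex that grips the branch point, had the largest difference of all members, 1.35 ± 0.24 (adjusted p = 0.000276) with the dimmer of its 2 probe sets. The values were 287, 384 and 398 in MB30, 284, 640.0 and 379 in MB60 and 208, 301 and 364 in MB180, against 198, 80.9 and 215 in SAL30, 151, 70.2 and 229 in SAL60 and 99.3, 151 and 53.9 in SAL180. Only MB180 replicate 1 lay within the range of the saline arrays. A brighter SF3B1 probe set, at 1328 to 1673 on methylene blue arrays and 1074 to 1590.1 on saline arrays, differed by 0.06 ± 0.076 and did not pass, although both followed each other across arrays (r = 0.620, n = 30). The covariate for the 3′/5′ ratio brought the difference of the dimmer one to 0.73 (adjusted p = 0.00945). SF3B5, the smallest subunit, rose by 0.37 ± 0.078 (adjusted p = 0.00141), at 617 to 1109 (median 880.0) on methylene blue arrays and 582 to 764 (median 694) on saline arrays. SF3B2, which contacts pre-mRNA near the branch point, fell by 0.36 (adjusted p = 0.00313), at 330.1 to 539 on methylene blue arrays and 492 to 675 on saline arrays. SF3A1 differed by 0.07 ± 0.13 and SF3B6, which touches the branch-point adenosine, by -0.06 ± 0.068.

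PRPF3, a U4/U6 protein, was the 1 call among 10 PRPF probe sets (25.2% of all tested passed), with a fall of -0.35 ± 0.10 (adjusted p = 0.0143). It stood at 203 to 390.5 (median 245) on methylene blue arrays and 238 to 404 (median 330.4) on saline arrays, with the 2 highest methylene blue values, 299 and 390.5, in MB180. PRPF19, a ubiquitin ligase of the spliceosome, differed by 0.02 ± 0.065, and the kinase PRPF4B by -0.06 ± 0.079. PRPF31, mutated in a form of retinitis pigmentosa, gave -0.24 ± 0.10 (adjusted p = 0.0785).

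RBM genes had 9 calls among 31 probe sets, 8 of them higher, beside 25.2% of all tested (13.8% higher and 11.4% lower). RBM5, a regulator of apoptotic gene splicing, rose by 0.80 ± 0.22 (adjusted p = 0.00984) with the middle of its 3 probe sets by level. It read 89 to 251 on methylene blue arrays and 31.8 to 158 on saline arrays. The dimmest read 37.3 to 71.9 on methylene blue arrays and 15.5 to 37.4 on saline arrays, a difference of 0.63 ± 0.13 that is given as a description, since this probe set passed the filter through the methylene blue arrays. The brightest RBM5 probe set, at 838 to 1352 on methylene blue arrays and 1032 to 1384 on saline arrays, differed by -0.14 ± 0.082 and did not pass. RBM42, found with the tri-snRNP, rose by 0.56 ± 0.13 (adjusted p = 0.00257) with the dimmer of 2 tested probe sets, at 158 to 222 (median 196) on methylene blue arrays and 94.3 to 179 (median 131) on saline arrays, while the brighter gave -0.05 ± 0.11. RBM18 rose by 0.82 ± 0.18 (adjusted p = 0.00233) on its dimmer probe set and by 0.29 ± 0.10 (adjusted p = 0.0393) on its brighter one. After median centring the brighter one did not pass (adjusted p = 0.194). With the signal ratio as a covariate neither passed (adjusted p = 0.107 for the dimmer and 0.286 for the brighter).

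The remaining RBM calls included the 1 that fell. RBM8A (Y14), a core protein of the exon junction complex that marks spliced mRNA, fell by 0.49 (adjusted p = 0.00187) with the brighter of its probe sets. It stood at 568, 548 and 773 in MB30, 706, 646 and 635 in MB60 and 783, 697 and 492 in MB180, against 1335, 719 and 850.3 in SAL30, 849, 909 and 814 in SAL60 and 857, 882 and 1110.1 in SAL180. Overlap came from SAL30 replicate 2, which lay below 2 methylene blue arrays. The dimmer RBM8A probe set gave -0.20 ± 0.091 and did not pass (adjusted p = 0.104). RBM34 rose by 0.48 (adjusted p = 0.0116) and RBM26, which takes part in nuclear RNA decay, by 0.77 (adjusted p = 0.0282), each on 1 probe set, and RBM48, a minor spliceosome protein, by 0.31 (adjusted p = 0.0340). RBM3, a cold-induced protein, was at 424 to 835 on methylene blue arrays and 445 to 848 on saline arrays and differed by -0.17 ± 0.13. RBM25, a U1-linked regulator, gave -0.11 ± 0.10, and RBM39, a coactivator related to U2AF, gave -0.13 and 0.15.

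**Figure D2:**
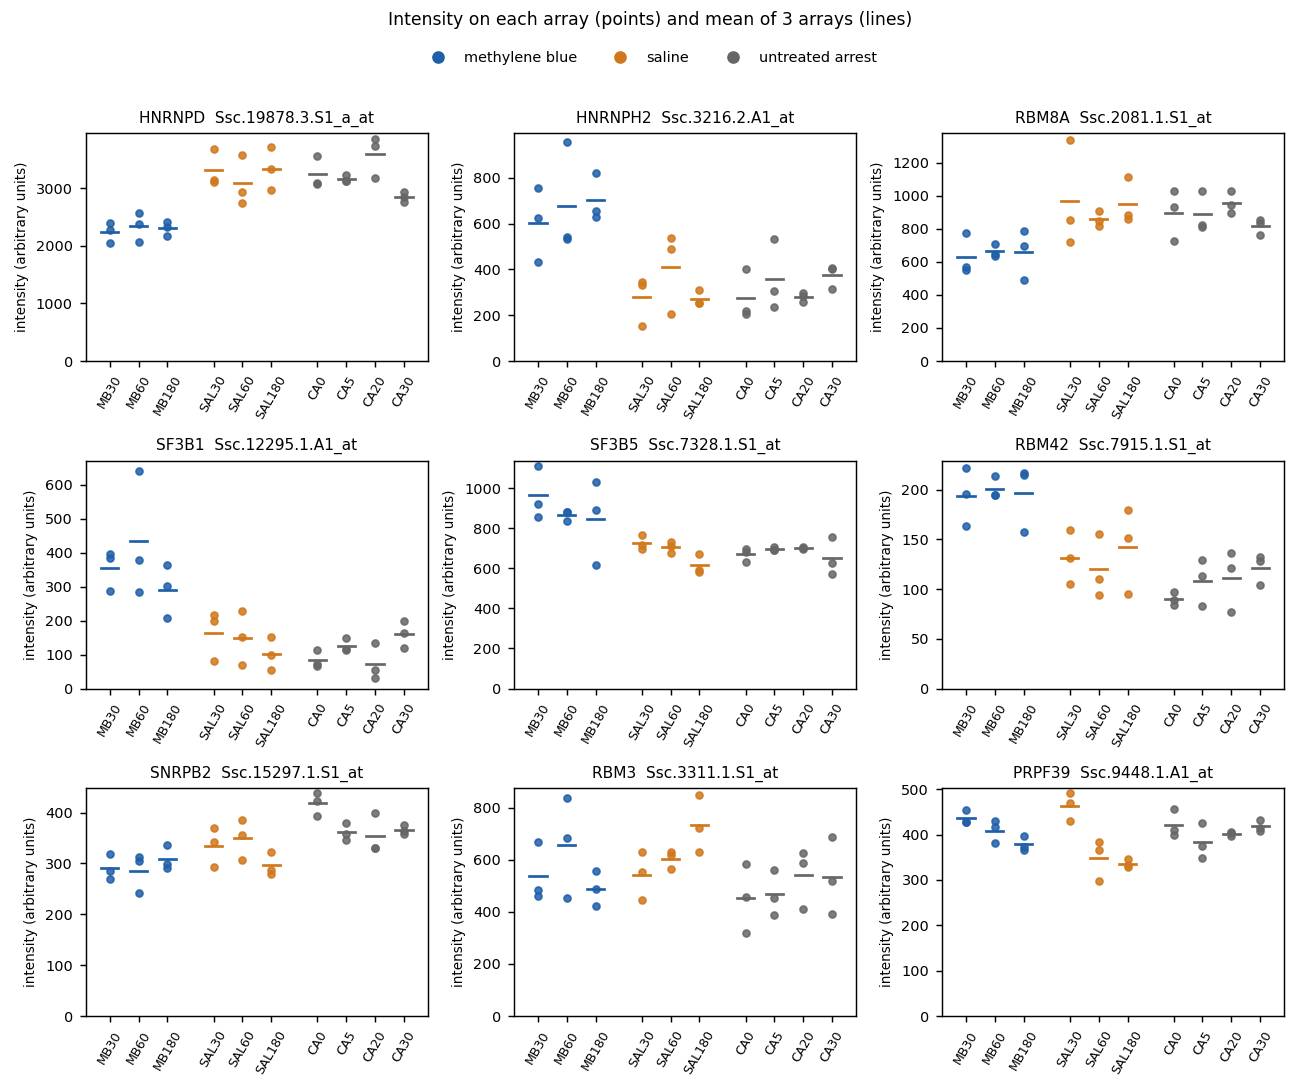
Intensity (y axis, arbitrary units) of 9 member probe sets on each of the 30 arrays, by group (x axis), with points for arrays and a line for the mean of 3. HNRNPD was at 2049 to 2566 on the methylene blue arrays, below all saline and arrest arrays, while SF3B1, HNRNPH2 and RBM42 were mostly higher there.

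At single times fewer members passed. At 30 min 3 of 114 did (2.63%, beside 4.09% of all tested). HNRNPD fell by 0.56 (adjusted p = 0.00887), SF3B2 fell by 0.50 (adjusted p = 0.0493), and RBM18 rose by 0.66 ± 0.18 with its brighter probe set (adjusted p = 0.0341). RBM18 read 1355, 1037 and 1109 in MB30 and 471, 939 and 874 in SAL30. SAL30 replicate 1, the array at 471, also stood apart on other measures, with an array weight of 0.317. Without it and SAL180 replicate 3, weight 0.459, the RBM18 adjusted p was 0.215. With the same arrays left out, the difference of this RBM18 probe set over the 3 times did not pass either (adjusted p = 0.0995). The count was 1 without SAL30 replicate 1 or MB30 replicate 3 and 8 without SAL30 replicate 3. At 60 min 0 members passed with limma (1.52% of all tested did), with 19 at an unadjusted p under 0.05 (17.3% of all tested), and SF3B1 came nearest at 1.49 ± 0.41 (adjusted p = 0.0647). At 180 min 2 passed (1.75%, beside 1.9% of all tested): HNRNPD fell by 0.53 (adjusted p = 0.0188), and HNRNPH2 rose by 1.31 ± 0.33 (adjusted p = 0.0390). There 0 passed when any of MB180 replicates 2 and 3 and SAL180 replicates 1 and 3 was left out, 4 without SAL180 replicate 2 and 6 without MB180 replicate 1. HNRNPD at 60 min differed by -0.40 ± 0.11 (adjusted p = 0.0762).

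**Figure D3:**
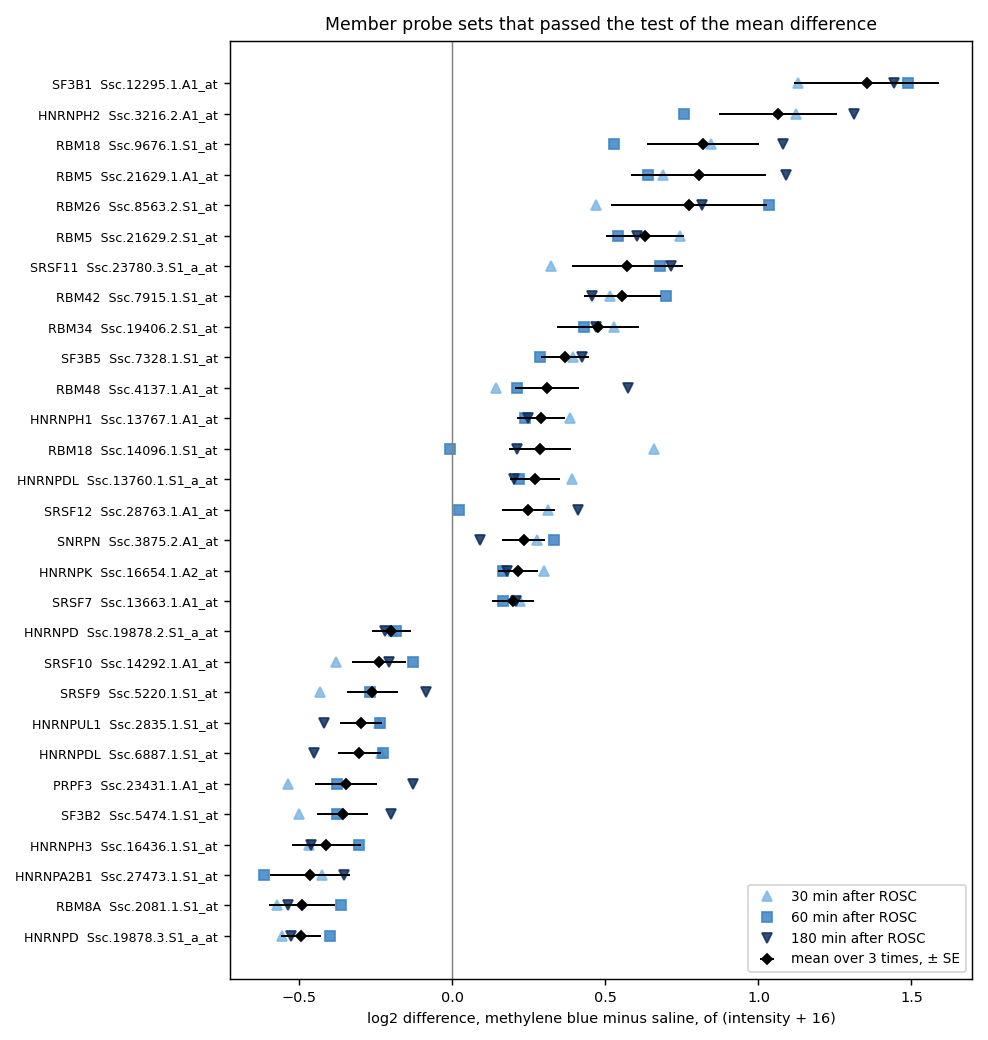
log2 difference between methylene blue and saline (x axis) at 30, 60 and 180 min and as the mean over times with its standard error, for the 29 called member probe sets (y axis). The marks of each probe set lie on the same side of 0 except those of the brighter RBM18 probe set, which was -0.01 at 60 min.

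No member passed the test of whether the methylene blue against saline difference changed between 30 and 180 min, with limma, where 3 had an unadjusted p under 0.05 (3.72% of all tested did) and 0% of all tested probe sets passed. The smallest p belonged to a dim HNRNPUL1 probe set at 1.48 ± 0.54, SNRPF at -0.66 ± 0.25 and HNRNPC at 0.67 ± 0.28 (adjusted p = 0.999 for each). Within the methylene blue groups 0 members passed between 180 and 30 min (0.286% of all tested did), with 7 at an unadjusted p under 0.05 (6.9% of all tested), among them SNRPF at -0.55 ± 0.17 and PRPF3 at 0.52 ± 0.18.

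Against CA0, which served as the control of all comparisons in this and the next paragraphs on single groups, the methylene blue groups gave 14, 12 and 10 called members at 30, 60 and 180 min. These are 12.3%, 10.5% and 8.77% of the members, beside 12.2%, 12.5% and 9.41% of all tested probe sets, with 10, 9 and 7 of them higher and 4, 3 and 3 lower. Of all tested, 7.58%, 7.05% and 5.7% were higher and 4.59%, 5.49% and 3.71% lower. Each count, and the higher ones in it, includes the dimmest RBM5 probe set, which passed the filter through the methylene blue arrays. These counts moved with single arrays. The 30 min count was 6 without MB30 replicate 2 or 3, 7 without CA0 replicate 1 and 8 without CA0 replicate 2 or 3. The 60 min count was 5 without CA0 replicate 3 and 6 without MB60 replicate 2. The 180 min count was 1 without MB180 replicate 2, and without CA0 replicates 1, 2 and 3 it was 6, 3 and 2. SF3B1 had differences of 1.91 ± 0.41, 2.12 ± 0.41 and 1.62 ± 0.41 (adjusted p = 0.00435, 0.00197 and 0.0144). RBM42 had 0.97, 1.03 and 0.99, each ± 0.22, and HNRNPD -0.53, -0.47 and -0.49, each ± 0.11. SNRPB2 fell at each time, with -0.50, -0.53 and -0.42 (adjusted p = 0.0102, 0.00701 and 0.0320). PRPF3 had -0.81 ± 0.18 and -0.75 ± 0.18 at 30 and 60 min (adjusted p = 0.00496 and 0.00756) and -0.29 ± 0.18 at 180 min, which did not pass. SNRPF, an Sm protein, was called at 30 min alone (0.53 ± 0.17, adjusted p = 0.0463), at 165, 232 and 236 in MB30 and 139.9, 156 and 123 in CA0. RBM6 fell at 180 min (-0.61 ± 0.17, adjusted p = 0.0251).

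In the saline groups no member passed against CA0, where few of all tested probe sets did. In SAL30, SAL60 and SAL180 against CA0, limma called 0 members at each time, beside 0.196%, 0.315% and 0.875% of all tested probe sets, and 7, 3 and 11 members had an unadjusted p under 0.05 (7.38%, 6.3% and 8.73% of all tested). SNRPB2 (U2B″), a U2 snRNP protein, came nearest in SAL180. It read 279, 287 and 323 in SAL180 and 438, 394 and 423 in CA0, groups that did not overlap (14% of all tested probe sets did not), with a difference of -0.48 ± 0.12 (adjusted p = 0.0675). RBM3 read 848, 631 and 721 in SAL180 against 456, 319 and 583 in CA0, also without overlap, a difference of 0.71 ± 0.23 (adjusted p = 0.213). In SAL30 the smallest p was that of a dim HNRNPUL1 probe set, 130.1, 115 and 134 in SAL30 against 33.4, 70 and 32.5 in CA0 (1.27 ± 0.38, adjusted p = 0.418).

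Over the saline course, 1 member passed between SAL180 and SAL30 (0.877%, beside 0.655% of all tested). PRPF39, a U1 snRNP-associated protein, was at 328, 334 and 346 in SAL180 and 492, 430.0 and 469 in SAL30, with no overlap (16.1% of all tested had none), and fell by 0.45 (adjusted p = 0.0429). CA0 read 399, 456 and 410.4, which overlapped SAL30, and the MB180 arrays read 373, 397 and 366. The call was lost when any of SAL30 replicates 1 and 3 or the 3 SAL180 arrays was left out. Next came the dim HNRNPUL1 probe set at -1.45 ± 0.38 (adjusted p = 0.0738) and SRSF11 at -0.51 ± 0.14 (adjusted p = 0.102).

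Arrest without resuscitation gave no called member. With limma 0 passed in CA5, CA20 and CA30 against CA0 and in the trend over 0 to 30 min (beside 0%, 0.0119%, 0.0119% and 0.00595% of all tested), and 0, 3, 5 and 1 had an unadjusted p under 0.05 (1.89%, 4.24%, 4.06% and 3.15% of all tested). At 20 min the smallest p was that of PRPF19, with 1247, 1253 and 1383 in CA20 and 1082, 944 and 1086 in CA0, a difference of 0.32 ± 0.11 (adjusted p = 0.997). At 30 min SRSF6 differed by 0.51 ± 0.23 and 0.53 ± 0.24 on 2 of its 6 probe sets, and PRPF3 by -0.39 ± 0.18 (adjusted p = 0.985 for each). Values of these probe sets did not overlap between the groups, and none passed the adjustment over all tested probe sets. Of all tested, 9.61% did not overlap between CA20 and CA0, and 13.4% between CA30 and CA0.

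When the 6 reperfused groups were set against the 4 groups of arrest alone, 19 members (18 genes) passed, 9 higher and 10 lower, which is 16.7% beside 17.6% of all tested, 10.4% higher and 7.25% lower. The count was 11 without CA5 replicate 1 or CA30 replicate 2. The split turned to 4 higher and 30 lower under median centring. With the 3 saline groups alone against the arrest groups 0 members passed with limma (1.5% of all tested did), with 8 at an unadjusted p under 0.05 (10.1% of all tested), and with the 3 methylene blue groups alone 51 did (25 higher and 26 lower, 44.7% beside 36.3% of all tested, 20.2% higher and 16.1% lower). SNRPB2 was lower in both arms, at 241 to 336 (median 299) on methylene blue arrays and 279 to 386 (median 323) on saline arrays, against 330.4 to 438 (median 369.8) on arrest arrays. Its differences from the arrest groups were -0.26 ± 0.056 over both arms (adjusted p = 0.00257), -0.33 ± 0.066 with methylene blue (adjusted p = 0.000489) and -0.19 ± 0.066 with saline, which did not pass (adjusted p = 0.227).

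Of the 19 members called over both arms, 8 were of the RBM class, 3 higher and 5 lower of 31 tested (beside 17.6% of all tested). Also called between methylene blue and saline were 9 of the 19, and 0 were called for saline alone against arrest. RBM42 rose by 0.52 (adjusted p = 0.000963) and SF3B1 by 0.95 (adjusted p = 0.00115). With saline alone against arrest these 2 probe sets differed by 0.24 and 0.27 and did not pass. RBM25 fell by 0.32 (adjusted p = 0.00747), at 322 to 532 (median 384) on methylene blue arrays and 348 to 681 (median 407) on saline arrays against 447 to 701 (median 519.8) on arrest arrays. RBM6, which lies next to RBM5 in the pig genome, fell by 0.34 (adjusted p = 0.00380), at 155 to 255 on methylene blue arrays and 185 to 303 on saline arrays against 203 to 331 on arrest arrays. Of RBM5 itself the brightest probe set fell by 0.23 (adjusted p = 0.0174) and a dimmer one rose by 0.61 (adjusted p = 0.0179). SNRPA1, the partner of SNRPB2 in the U2 snRNP, fell by 0.48 (adjusted p = 0.0407) with its dimmer probe set while its brighter one did not pass (adjusted p = 0.989). The SNRPA1 call was lost when any of 15 single arrays was left out, and with the 3′/5′ covariate (adjusted p = 0.0901). With saline alone the smallest p-values were those of SRSF2 at 0.21 ± 0.065 (adjusted p = 0.142) and an SRSF1 probe set at -0.64 ± 0.21 (adjusted p = 0.169).

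Probe sets of the same gene often disagreed. Among 27 genes with several tested probe sets, the 66 pairs had a median Pearson r of 0.119 over the 30 arrays, from -0.566 (RBM5) to 0.809 (HNRNPD), with 11 pairs at 0.5 or above and 26 below 0. These arrays share the arms and the 3′/5′ differences given above, so r describes them and tests nothing. For methylene blue against saline 14 of the 27 genes had probe sets on both sides of 0, 14 had a call on some probe sets and not on others, 10 had no call, and 3 (HNRNPD, HNRNPDL and RBM18) were called on every tested probe set. SF3B1, RBM42, RBM26, RBM34 and HNRNPUL1 belong to the genes called on 1 probe set with another near or beyond 0, so their differences are those of a probe set and not of the whole gene's transcripts. Which transcript ends the probe sets read was not examined here.

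**Figure D4:**
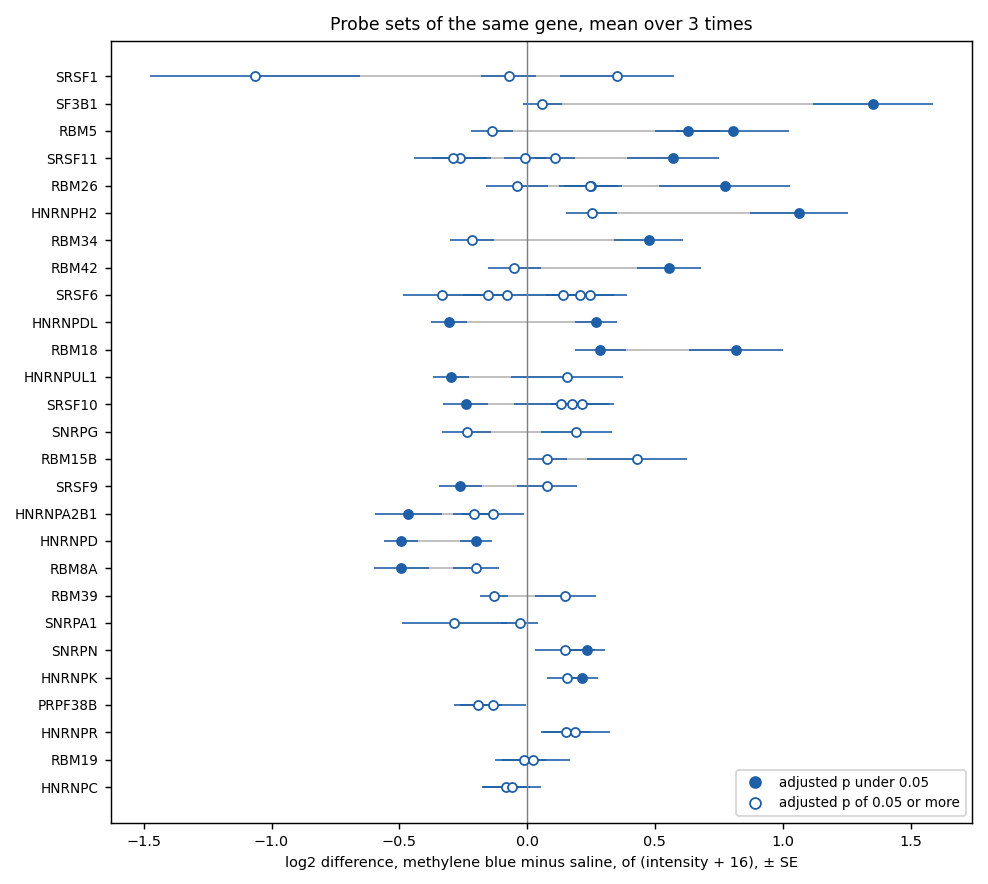
log2 difference between methylene blue and saline over 3 times (x axis) of each tested probe set of the 27 member genes with several (y axis), filled where the adjusted p was below 0.05. Probe sets of 14 genes fall on both sides of 0, and those of SRSF1 run from -1.06 to 0.35.

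Differences also went with the level of a probe set, for members as for the array. Of the 20 members in the lower level class (of 3 classes holding equal numbers of all tested probe sets by mean level), 5 were called higher, the dimmest RBM5 probe set among them, and 0 lower with a median difference of 0.20. Of the 31 in the middle class 6 were higher and 2 lower (median 0.07), and of the 63 in the upper class 7 were higher and 9 lower (median -0.05). Over all tested probe sets the percentages higher and lower were 18.5 and 4.57 in the lower class, 13.3 and 11.8 in the middle and 9.54 and 17.9 in the upper. Within a gene, the dimmest probe set had the higher difference of dimmest and brightest in 21 of 27 member genes (77.8%), beside 1136 of 1543 genes of the array (73.6%). For saline against arrest the same held in 14 of 27 member genes (51.9%), beside 64% of genes. These comparisons were chosen after the values were seen, and the part of the level in the calls was not tested.

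**Figure D5:**
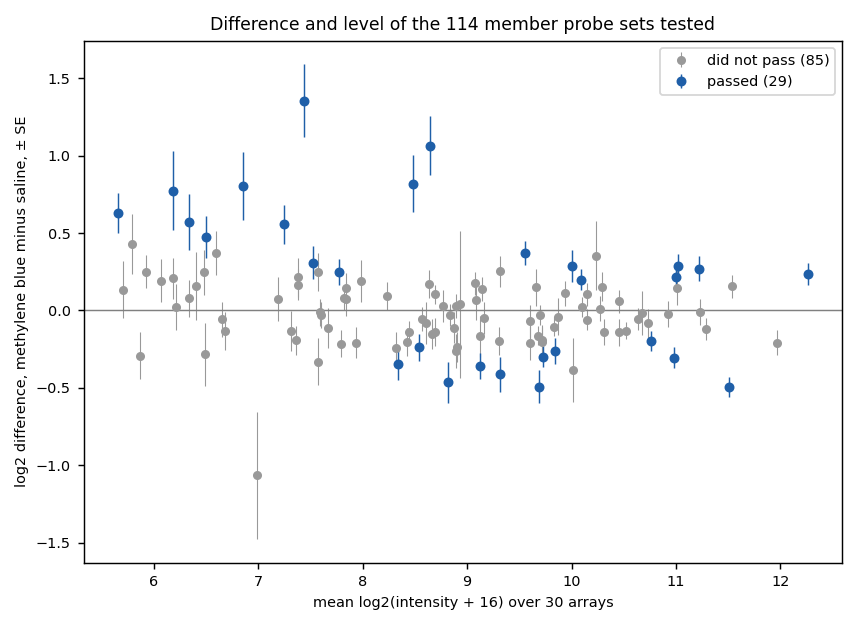
log2 difference between methylene blue and saline (y axis) against the mean log2 level of each of the 114 tested member probe sets (x axis), with the 29 that passed marked apart from the 85 that did not. Called probe sets in the lower level class, 5 in all, lie above 0, and those in the upper class lie on both sides.

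Other splicing and mRNA-processing genes outside the symbol rule were examined from a fixed list, of which 119 genes (174 probe sets) were tested. Between methylene blue and saline 31 of these probe sets were higher and 34 lower (37.4%, beside 25.2% of all tested, 13.8% higher and 11.4% lower). Cleavage and polyadenylation genes had 7 higher and 1 lower of 19, SR-like proteins 4 and 6 of 24, hnRNP-like proteins 4 and 5 of 22, and genes of 3′ splice site recognition 4 and 3 of 11. U1-linked genes had 0 and 1 of 5 (20%) and minor spliceosome genes 1 and 1 of 6 (33.3%). The remaining lists, some below the share of all tested, are given at the end. MATR3, a nuclear matrix RNA-binding protein, averaged 2832 ± 329 on methylene blue arrays and 1901 ± 357 on saline arrays (SD, n = 9 each), a rise of 0.58 (adjusted p = 0.000192). SRRM1, an SR-related coactivator, averaged 802 ± 60.4 on methylene blue arrays and 1094 ± 160 on saline arrays and fell by 0.43 (adjusted p = 0.000271). Its other, dimmer probe set averaged 154 ± 45.4 on methylene blue arrays and 112 ± 36.1 on saline arrays. TRA2B, an activator of neuronal exons, rose by 0.70 and 0.24 on 2 of its 4 probe sets.

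In SAL180 against CA0, where 0 of 114 members passed, that list had 1 probe set higher and 2 lower of 174 (1.72%, beside 0.875% of all tested). In SAL30 against CA0 the list had 0 of 174. PABPN1, the nuclear poly(A)-binding protein, averaged 443 ± 19.9 in SAL180 and 838 ± 34.98 in CA0 (SD, n = 3 each) with 1 of its 3 probe sets and fell by 0.90 (adjusted p = 4.88e-05). LUC7L3, a U1-linked splicing regulator, averaged 669 ± 27.6 in SAL180 and 1112 ± 247 in CA0 and fell by 0.69 (adjusted p = 0.0106). YBX3, a cold shock domain protein, rose by 0.81 ± 0.17 (adjusted p = 0.00997), at 683 ± 86.0 in SAL180 and 385 ± 60.0 in CA0. That PABPN1 probe set averaged 504 ± 21.4 in MB180. Another 2 PABPN1 probe sets averaged 1675 ± 281 and 556 ± 66.5 in SAL180 against 1884 ± 51.0 and 642 ± 17.9 in CA0.

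Some cell type markers also passed between the arms, where 13.8% of all tested were higher and 11.4% lower. Neuron markers were higher on methylene blue arrays in 5 of 15 probe sets, with a summed intensity of 41960 to 70061 there and 38607 to 52365 on saline arrays. Oligodendrocyte markers were lower in 3 of 13, with summed intensities of 32213 to 61808 on methylene blue arrays and 40859 to 59125 on saline arrays, and microglia markers in 1 of 5, with 1587 to 2677 on methylene blue arrays and 1639 to 5632 on saline arrays. Of the astrocyte markers 1 was higher and 2 lower of 11, and of the endothelial markers 1 was higher and 1 lower of 12. Meninges markers were higher in 2 of 5, with summed intensities of 6200 to 10443 on methylene blue arrays and 6927 to 8674 on saline arrays. In bulk cortex fewer cells of a type and less RNA per cell cannot be told apart, and the part of the makeup of the tissue in the differences of splicing factor transcripts was not tested.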

How the data were processed

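Cortex RNA was measured on 30 Affymetrix porcine arrays. The deposited intensity values are linear, and the authors' software was GCOS, per the submitters' processing notes; how it summarised probes is not given there. The trimmed mean was 300.05 to 300.06 on every array, so values had been brought to a common scale. Of 24123 probe sets, 124 control probe sets were left out.

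Intensity plus 16 was taken to log2, and probe sets in the lowest 30% by mean (cutoff at an intensity near 29.5) were dropped. With limma 3.58.1 in R 4.3.3, group means of the 10 groups were fitted together (20 residual degrees of freedom, prior variance following intensity), and two-sided p-values were adjusted by Benjamini-Hochberg for each comparison, with a threshold of 0.05. The pipeline was tested on simulated data. With 3 arrays per group, which limits the precision, an exact permutation test of a single probe set could not go below 0.1. The p-values measure the spread between the labelled biological replicates.

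Members, gene lists and tests were chosen with earlier results of these data known. Genes named are the members that passed, up to 10 per direction, the 3 smallest p-values of each comparison, the 12 smallest over all groups, a fixed set of well-known members, the genes whose probe sets spread most, and called genes of the other lists. PRPF8 of the fixed set was not analysed here. All probe sets of a gene were kept, and levels were compared within a probe set. A probe set with several symbols (1 in all) was left out.

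Alternatives covered the pseudocount (1 and 64), the filter, quantile normalization, centring on the median, fits restricted to the groups compared, a constant prior variance, weights per array, a block for the replicate number, adjustment across comparisons, and each array left out. The 3′/5′ covariate, a fit without SAL30 replicate 1 and SAL180 replicate 3, the arms set singly against arrest, and the level classes were added once values had been seen. Replicate numbers were not treated as pairs, since the labels name none. Same-numbered arrays of different groups deviated together no more than others (correlations of -0.376 to 0.365). With 3 arrays per group this cannot show that no animals were handled together.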

Additional observations from a re-analysis of the deposited data

How the results depend on the processing

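Methylene blue against saline over the 3 times gave 21 to 32 called members when each array was left out, the fewest without SAL60 replicate 2. It gave 16 with adjustment across all comparisons together and 13 with the 3′/5′ ratio as a covariate, chosen after seeing the data. With the replicate number as a block it gave 28 beside 29, and reperfusion against arrest gave 17 beside 19. The numbers share no animal, day or litter in the labels, and 8 of 30 arrays correlated best with their own number. In the order MB30, MB60 and MB180, called members against CA0 were 8, 6 and 3 with the compared groups alone and 6, 7 and 6 with adjustment across comparisons. At 60 and 180 min they were 19 and 19 after median centring, and at 30 and 60 min 2 and 2 with the covariate. Leaving out arrays gave 6 to 11 for MB30, 5 to 15 for MB60 and 1 to 9 for MB180.

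For methylene blue against saline at 30, 60 and 180 min the counts were 5, 1 and 4 with a pseudocount of 64, and 1, 2 and 0 without SAL30 replicate 1 and SAL180 replicate 3. At 30 and 180 min they were 5 and 5 after median centring, 0 and 1 with the compared groups alone, and 5 and 0 with the covariate. At 60 min the count was 1 without a filter, 2 after quantile normalization and 1 with adjustment across comparisons, and at 180 min 9 with array weights. Left-out arrays gave 1 to 8, 0 to 1 and 0 to 6. SAL180 against SAL30 gave 0 without a filter, after either normalization, with the compared groups alone, with the covariate or without the 2 arrays, 2 with array weights, 3 with adjustment across comparisons, and 0 to 1 with arrays left out. SAL180 against CA0 gave 2 with array weights and 1 with adjustment across comparisons. MB180 against MB30 gave 0 to 1 with arrays left out.

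Reperfusion against arrest gave 34 after median centring, 37 with array weights, 8 with adjustment across comparisons, 6 with the covariate, 0 with saline groups only, 51 with methylene blue groups only, and 11 to 24 with arrays left out. The test over 10 groups gave 23 after median centring, 3 with the covariate and 11 to 17 with arrays left out, fewest without SAL180 replicate 1. The covariate varies with the arms and leaves fewer degrees of freedom, and the cause of the other changes was not tested. Of 3043 alternative values of the 118 named results, 2519 kept their direction and side of the threshold, 487 lost the call, 37 gained it and 0 reversed. The 118 include the 3 smallest p-values of comparisons without a call, which had none to lose. They leave out called members beyond 10 per direction. For methylene blue against saline SRSF7, SRSF12, SNRPN, HNRNPK, HNRNPH1, RBM48, the dimmer HNRNPD and the brighter HNRNPDL and RBM18 probe sets are thus left out. Dim probe sets lie close to background, and 3 arrays per group limit the precision.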

Other observations

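Further splicing and RNA-processing lists outside the symbol rule were also counted for methylene blue against saline over the 3 times. Factors of snRNP assembly had 2 probe sets higher and 5 lower of 14, LSm proteins 0 and 3 of 9, the exon junction complex and mRNA export 3 and 4 of 15, other tri-snRNP proteins 4 and 3 of 33, and tissue-restricted splicing regulators 2 and 2 of 17, where 13.8% of all tested were higher and 11.4% lower. The tri-snRNP share, 21.2%, and that of the tissue-restricted regulators, 23.5%, were below the 25.2% of all tested that passed. In SAL180 against SAL30, 0 of the 174 probe sets of all lists were higher and 2 lower (1.15%, beside 0.655% of all tested). LUC7L3 fell by 0.79 (limma adjusted p = 0.00844) and PABPN1 fell by 0.61 (limma adjusted p = 0.0101), each on 1 probe set. With the saline groups together against the arrest groups, 3 were higher and 1 lower (2.3%, beside 1.5% of all tested). PABPN1 fell by 0.49 (limma adjusted p = 1.66e-05) on 1 probe set, and its other probe sets did not pass. YBX3 rose by 0.53 (limma adjusted p = 0.000781), BCAS2 rose by 0.33 (limma adjusted p = 0.00856) and SMNDC1 rose by 0.30 (limma adjusted p = 0.0294), each on 1 probe set.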
